A study of Mus musculus with 20 samples.

Results

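Pcp2, Gng13, Prkca and Trpm1 encode signalling proteins of retinal bipolar cells. They were taken as the probes whose platform annotation names 1 of these genes, which gave 4 probes, 1 a gene, of the 10500 probes on the array and of the 9230 genes that named probes stood for. All 4 had a value on each of the 20 arrays. The arrays were GE Healthcare (Amersham) CodeLink arrays, a 1-colour platform hybridised with biotin-labelled total RNA. There were 4 groups of 5 arrays: retina at site 2, retina at the first site, cortex at site 2 and cortex at the first site. The retina pool was from adult C57/B6 mice, and the cortex pool was from Swiss-Webster mice on postnatal day 1, so that tissue, strain and age cannot be told apart. Because every array of a tissue carried the same pooled RNA, these are technical replicates. Their p-values speak of the spread between arrays, not between animals, and precision is limited by how many arrays there were. Intensities have no physical unit. From the values they were scaled so that an intensity of 1 lies close to the median probe of an array.

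Bipolar cells carry the signal of photoreceptors to ganglion and amacrine cells. The ON types sense photoreceptor glutamate through the metabotropic receptor mGluR6, whose G protein holds the cation channel TRPM1 closed in the dark, so that a fall in glutamate at light onset opens the channel. Gng13 encodes a gamma subunit of that G protein, Pcp2 (also called L7) a small protein with a GoLoco motif that binds alpha subunits of the Gi and Go class, Trpm1 the channel itself and Prkca protein kinase C alpha, whose antibody stain is the usual marker of rod bipolar cells. Outside the retina, Pcp2 is known from cerebellar Purkinje cells, Gng13 from taste and olfactory cells, Trpm1 from melanocytes and Prkca from many tissues.

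The start regions of the 4 genes are printed here because 3 of the members stood far higher in retina and the fourth, the channel gene, did not. Trpm1, Pcp2 and Gng13 each have more than 1 start in RefSeq. Both are printed for Trpm1, and only the most upstream for Pcp2 and Gng13. Each line is a 300-base window of the mouse build GRCm38.p6 from RefSeq, 250 bases before a gene's start and 50 after it, read 5′ to 3′ on the gene's strand. The windows lie at chr17:25716922-25717221 (+ strand) for Gng13, chr8:3625498-3625797 (- strand) for Pcp2, chr7:64153585-64153884 (+ strand) for the upstream start of Trpm1, chr7:64185209-64185508 (+ strand) for its downstream start and chr11:108343839-108344138 (- strand) for Prkca. Capitals mark TAATCC, the core bound by the retinal homeodomain factors OTX2 and CRX, and 3 E-boxes, the letters that basic helix-loop-helix factors bind. The E-boxes searched were CAGATG, which is shared by neurogenic factors, the palindrome CACGTG, to which MITF binds, and its relative CATGTG. Each motif was searched on both strands.
Gng13: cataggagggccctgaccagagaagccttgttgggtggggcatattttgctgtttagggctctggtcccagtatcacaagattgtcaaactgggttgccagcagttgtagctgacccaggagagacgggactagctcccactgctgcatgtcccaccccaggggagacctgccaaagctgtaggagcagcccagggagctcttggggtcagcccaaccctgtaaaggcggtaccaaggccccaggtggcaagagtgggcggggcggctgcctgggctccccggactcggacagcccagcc
Pcp2: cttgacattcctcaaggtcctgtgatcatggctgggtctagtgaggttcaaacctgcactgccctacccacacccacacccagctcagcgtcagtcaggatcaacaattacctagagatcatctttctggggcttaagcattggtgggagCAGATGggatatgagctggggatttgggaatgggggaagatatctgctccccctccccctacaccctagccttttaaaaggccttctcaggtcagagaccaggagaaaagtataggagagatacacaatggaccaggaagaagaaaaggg
Trpm1 upstream: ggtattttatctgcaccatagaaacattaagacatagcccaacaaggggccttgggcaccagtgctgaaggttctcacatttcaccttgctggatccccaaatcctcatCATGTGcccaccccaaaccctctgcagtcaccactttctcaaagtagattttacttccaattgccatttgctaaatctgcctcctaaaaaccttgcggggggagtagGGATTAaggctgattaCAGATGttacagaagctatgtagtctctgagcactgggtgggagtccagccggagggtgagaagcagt
Trpm1 downstream: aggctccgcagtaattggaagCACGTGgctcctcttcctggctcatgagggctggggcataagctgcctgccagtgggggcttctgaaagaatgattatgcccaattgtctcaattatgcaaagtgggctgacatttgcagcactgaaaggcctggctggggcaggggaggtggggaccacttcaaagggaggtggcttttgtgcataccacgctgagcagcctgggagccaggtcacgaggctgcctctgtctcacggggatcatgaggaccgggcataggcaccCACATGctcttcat
Prkca: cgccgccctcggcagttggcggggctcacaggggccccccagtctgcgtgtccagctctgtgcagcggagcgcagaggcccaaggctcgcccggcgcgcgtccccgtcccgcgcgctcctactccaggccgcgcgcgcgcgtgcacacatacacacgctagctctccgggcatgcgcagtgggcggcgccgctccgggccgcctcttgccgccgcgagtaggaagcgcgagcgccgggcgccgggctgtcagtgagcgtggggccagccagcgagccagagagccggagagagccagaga
The upstream Trpm1 window held TAATCC on its opposite strand from 34 bases before the start, followed by CAGATG from 18 bases before it, and CATGTG from 141 bases before it. Of the 32851 windows of this length in the RefSeq table, 7.06% held TAATCC, 17.2% CAGATG, 7.15% CACGTG and 14.2% CATGTG. The Pcp2 window held CAGATG from 100 bases before the start. The downstream Trpm1 window held CACGTG and CATGTG, and the Gng13 and Prkca windows held none of the marked letters. GGGCGG, the GC box, which is not marked and is found in 35.7% of windows, was in the Gng13 window and in the Prkca window, each with 2 copies. Other motifs were searched and are not marked. The TATA box TATAAA was in 13.6% of windows and in none of the 5 printed. Of the homeodomain cores, TAATTA was in 5.29% of windows and AATTAG in 8.21%, and neither was in a printed window. The core TAATTG was in 8.0% of windows, and the printed Pcp2 window and the downstream Trpm1 window held it. RefSeq lists 4 windows for Pcp2 and 2 for Gng13, of which the most upstream is printed. A match is a description of letters, and the place of the array probes on these transcripts is not given in the sources used here.

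Array medians ran from 0.927 to 0.963. The typical distance of an array from the other arrays of its group, as the median absolute log2 difference over the 10339 tested probes, was 0.10 to 0.184 for 19 arrays and 0.392 for replicate 5 of cortex at site 2. That array stood apart, and the members' differences that include it are also given without it. The tissue labels were set against marker genes. All 5 measured rod markers and all 4 cone markers were higher in retina at both sites, and 4 of 5 measured markers of cortical neurons were higher in cortex at both sites.

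Gng13, Pcp2 and Prkca were higher in retina than in cortex at both sites, with no overlap of arrays, and Trpm1 differed by less than 2-fold. A gene counts as changed here when its adjusted p in limma, over all 10339 tested probes, is under 0.05 and the difference is at least 2-fold, which is 1 on the log2 scale. By this rule 3 of the 4 members were higher in retina at the first site, where 24.9% of all tested probes passed in either direction, 11.9% with retina higher and 13.0% with retina lower. The same 3 of 4 passed at site 2, where the shares were 24.6% in either direction, 11.1% with retina higher and 13.5% with retina lower. In RNA of whole tissue, a larger share of cells of a type and more RNA per cell cannot be told apart.

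Gng13, the G protein subunit, read 19.8, 19.4, 18.3, 21.5 and 20.2 on the retina arrays of the first site, against 1.88, 1.71, 2.11, 2.00 and 1.68 on the cortex arrays. At site 2 it read 16.1, 16.4, 17.4, 17.8 and 20.02 in retina, against 1.52, 1.57, 1.56, 1.20 and 1.07 in cortex. Every retina array lay far above every cortex array, and the closest pair of a retina and a cortex array still differed 8.70-fold on first-site arrays and 10.2-fold on site 2 arrays. Gng13 was 10.6-fold higher in first-site retina (log2 3.41, SE 0.11, adjusted p in limma 1.3e-15) and 12.8-fold higher in site 2 retina (log2 3.68, SE 0.11, adjusted p in limma 4.2e-16). Without replicate 5 of cortex the site 2 difference was 3.59 on the log2 scale.

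Pcp2, the GoLoco protein, read 31.7, 35.2, 34.7, 39.4 and 40.0 on the retina arrays of the first site, against 0.849, 0.879, 0.970, 0.742 and 0.677 on the cortex arrays. At site 2 it read 45.3, 42.4, 44.6, 44.0 and 48.5 in retina, against 0.764, 0.725, 0.683, 0.677 and 0.654 in cortex. All retina arrays were high and all cortex arrays lay below 1, so the groups were separated at both sites. Pcp2 was 44.2-fold higher in first-site retina (log2 5.46, SE 0.09, adjusted p in limma 1.6e-18) and 64.2-fold higher in site 2 retina (log2 6.005, SE 0.09, adjusted p in limma 4.75e-19). The ratio of a single retina array to a single cortex array ran from 32.6 to 59.2 at the first site and from 55.5 to 74.2 at site 2. Ordered by the difference towards retina, Pcp2 had rank 32 of 10339 probes at the first site and rank 24 at site 2. Gng13 had ranks 122 and 94, Prkca 292 and 263, and Trpm1 3686 and 2450. Without replicate 5 of cortex the Pcp2 difference at site 2 was 5.98 on the log2 scale.

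Trpm1, the channel that the cascade gates, read 0.748, 0.768, 0.871, 0.766 and 0.851 on the retina arrays of the first site, against 0.662, 0.787, 0.668, 0.695 and 0.627 on the cortex arrays. The 2 groups overlapped there, because cortex replicate 2 read above 3 of the 5 retina arrays. At site 2 Trpm1 read 0.970, 0.895, 0.908, 1.06 and 0.968 in retina, against 0.801, 0.726, 0.75003, 0.645 and 0.532 in cortex, and the lowest retina array lay above the highest cortex array. Such a separation with retina on top was seen for 24.0% of all tested probes at site 2 and for 26.2% at the first site. The first-site difference was 1.17-fold (log2 0.22, 95% interval 0.02 to 0.43, adjusted p in limma 0.059). The site 2 difference was 1.40-fold (log2 0.49, 95% interval 0.28 to 0.69, adjusted p in limma 2.5e-04), which passed the adjusted p and not the 2-fold limit. At any fold an adjusted p under 0.05 was reached by 59.9% of probes at the first site and 60.4% at site 2, so it is common among these technical replicates. Without replicate 5 of cortex the site 2 difference was 0.40 (adjusted p in limma 2.7e-04). The first-site adjusted p was 0.015 in the fit without that array, 0.047 after quantile normalization and 0.085 with a replicate block. The values used carry no detection call, so whether this probe lay above background was not tested. Nor was it tested for Pcp2 and Prkca in cortex, where they lay at a similar level. On first-site cortex arrays Pcp2, Prkca and Trpm1 lay at mean percentiles of 47.5, 47.8 and 44.2 of an array's probes. On site 2 cortex arrays these were 43.7, 42.8 and 43.3. The fold differences of Pcp2 and Prkca rest on those cortex values.

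Prkca, the kinase, read 4.68, 4.42, 4.57, 4.27 and 4.22 on the retina arrays of the first site, against 0.715, 0.950, 0.732, 0.832 and 0.968 on the cortex arrays. At site 2 it read 3.65, 3.27, 3.38, 3.54 and 4.08 in retina, against 0.698, 0.738, 0.702, 0.718 and 0.515 in cortex. The tissues did not overlap, and the lowest cortex value was that of replicate 5, the array that stood apart. Prkca was 5.32-fold higher in first-site retina (log2 2.41, SE 0.11, adjusted p in limma 2.2e-13) and 5.34-fold higher in site 2 retina (log2 2.42, SE 0.11, adjusted p in limma 2.1e-13). Without that array the site 2 difference was 2.32.

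**Figure D1:**
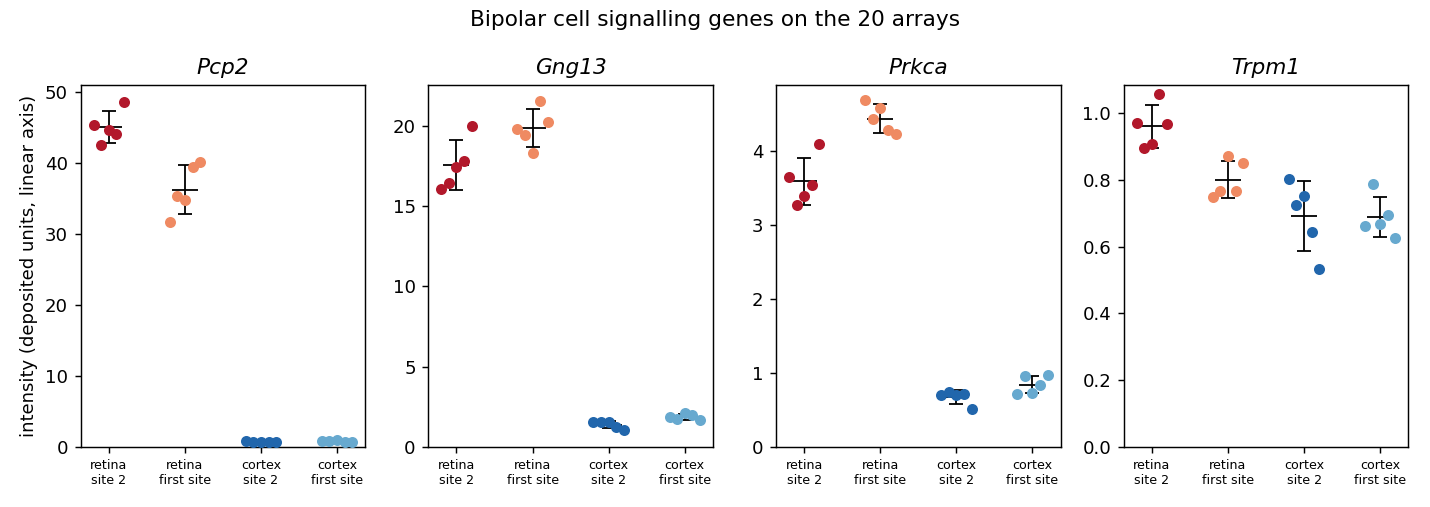
Intensity of the 4 genes (vertical axes, deposited units, linear from 0, a scale for each gene) on the 20 arrays. Points are arrays in order of replicate number, and bars are the mean and SD over 5 arrays of a group. The retina arrays of Pcp2, Gng13 and Prkca lie far above the cortex arrays at each site, whereas Trpm1 lies between 0.532 and 1.06 on all arrays.

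**Figure D2:**
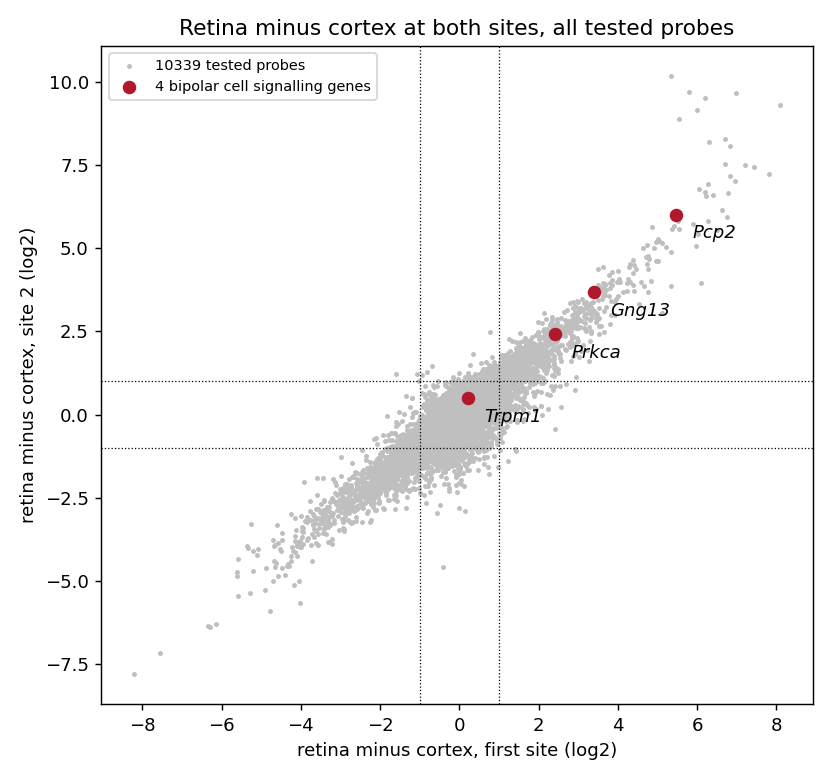
Log2 difference of retina minus cortex at the first site (horizontal axis) and at site 2 (vertical axis) for the 10339 tested probes in grey and the 4 genes in red, with dotted lines at a 2-fold difference. Pcp2, Gng13 and Prkca lie beyond the 2-fold lines at both sites, and Trpm1 lies within the central cloud.

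The same RNA pools measured at 2 sites gave the design's second question, how far sites differ. In the retina pool Pcp2 averaged 45.0 ± 2.26 at site 2 and 36.2 ± 3.49 at the first site (SD, n = 5 each), a log2 difference of 0.32 (SE 0.09, adjusted p in limma 0.0081). Prkca averaged 3.58 ± 0.314 at site 2 and 4.43 ± 0.194 at the first site (SD, n = 5 each), a difference of -0.31 (adjusted p in limma 0.022). Gng13 averaged 17.6 ± 1.55 and 19.9 ± 1.17 (-0.18, adjusted p in limma 0.171), a sign that turned to 0.07 after quantile normalization, and Trpm1 0.960 ± 0.0646 and 0.801 ± 0.0562 (0.26, adjusted p in limma 0.035), in the same order of sites. None of the 4 passed the 2-fold rule between sites in retina, where 6.24% of all tested probes did, while 46.7% had an adjusted p under 0.05 at any fold. In retina the estimates were positive for Pcp2 and Trpm1 and negative for Prkca and Gng13.

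In the cortex pool the members also stayed within 2-fold between sites, where 7.21% of all tested probes passed and 46.8% had an adjusted p under 0.05 at any fold. Gng13 averaged 1.39 ± 0.232 at site 2 and 1.88 ± 0.182 at the first site (SD, n = 5 each), a log2 difference of -0.45 (adjusted p in limma 0.0019, and -0.36 without replicate 5 of site 2). Prkca differed by -0.32 (adjusted p in limma 0.019, and -0.22 without that array), Pcp2 by -0.22 (adjusted p in limma 0.053) and Trpm1 by 0.00 (adjusted p in limma 0.977). Without replicate 5 of site 2 the Trpm1 difference was 0.09 and that of Pcp2 -0.20. On the same cortex arrays 3 of the 5 measured rod markers passed as lower at site 2 and 2 did not pass. Gnat1, rod transducin, had geometric means of 0.141 at site 2 and 2.66 at the first site, and Sag, rod arrestin, 0.202 and 1.26. Summed over the 5 measured rod markers, cortex arrays ran from 13.4 to 18.1 at site 2 and from 18.7 to 26.9 at the first site. Pde6g made up most of both sums, with geometric means of 14.7 at site 2 and 16.7 at the first site (log2 -0.18, adjusted p in limma 0.158). Pde6b did not pass either (-1.06, adjusted p in limma 0.163). Its estimate includes replicate 5 of site 2, where it read 2.72, against 0.109 to 0.187 on the other cortex arrays there. The geometric mean of Pde6b in first-site cortex was 0.545. The 4 measured cone markers summed to 0.646 to 2.01 at site 2 and 0.383 to 1.03 at the first site, and 1 of them, Cngb3, passed as higher at site 2. Of 9 bipolar markers 5 were measured. These, which include the 4 genes themselves and Grik1, summed to 3.67 to 4.87 at site 2 and to 5.11 to 5.60 at the first site. The rod and bipolar ranges lay lower at site 2, and the cone range did not. The top of that cone range came from replicate 5 of site 2, the array that stood apart. There Gnat2 read 1.47, against 0.0555 to 0.0721 on the other cortex arrays of that site. The part of retinal RNA in the cortex arrays in these ranges was not tested.

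The test of whether the tissue difference itself differed between sites gave 0.54 on the log2 scale for Pcp2 (SE 0.13, adjusted p in limma 0.026), larger at site 2. It was under the 2-fold rule, which 0.725% of all tested probes passed, while 3.98% had an adjusted p under 0.05 at any fold. The adjusted p of Pcp2 was 0.069 with a replicate block, and leaving out 1 array at a time gave 0.0099 to 0.051. It was 0.0512 without retina replicate 5 of site 2 and 0.0504 without retina replicate 2 of the first site, and 0.023 (log2 0.52) without cortex replicate 5 of site 2. For Gng13 the difference between sites was 0.27 (95% interval -0.04 to 0.58, adjusted p in limma 0.302) and for Trpm1 0.27 (-0.02 to 0.56, adjusted p in limma 0.270). For Prkca it was 0.01 (-0.30 to 0.32, adjusted p in limma 0.986). Without cortex replicate 5 of site 2 it was 0.18 for Gng13, 0.18 for Trpm1 and -0.09 for Prkca, where the sign turned, with adjusted p in limma of 0.384, 0.324 and 0.695.

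**Figure D3:**
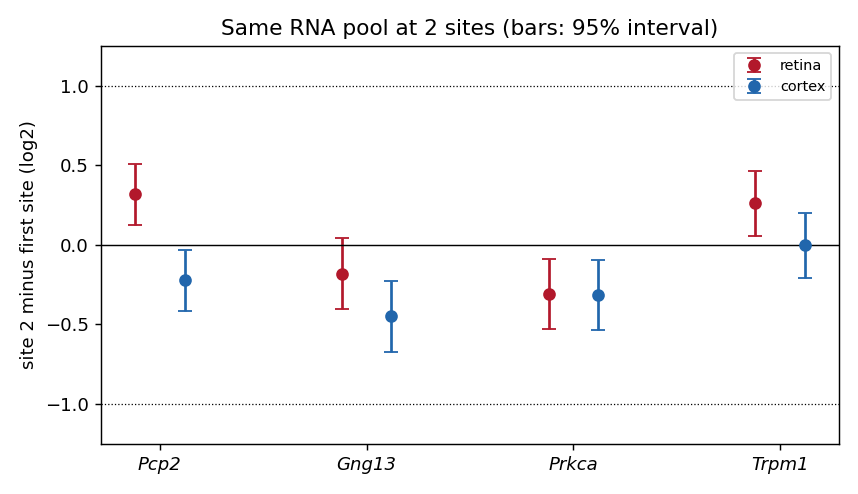
Log2 difference of site 2 minus the first site for each gene in the retina pool (red) and in the cortex pool (blue), with 95% intervals from the fit and dotted lines at a 2-fold difference. All 8 intervals lie within the 2-fold lines, from -0.67 to 0.51.

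In retina the SD of log2 intensity over 5 arrays was 0.06 for Prkca, 0.08 for Gng13, 0.10 for Trpm1 and 0.14 for Pcp2 at the first site, where the median over all tested probes was 0.16. At site 2 it was 0.12 for Prkca and for Gng13, 0.10 for Trpm1 and 0.07 for Pcp2 in retina, against a median of 0.16. With all arrays the SD of each gene in cortex was larger than in retina at the same site, and at site 2 the SDs were 0.25 for Gng13, 0.21 for Prkca, 0.23 for Trpm1 and 0.09 for Pcp2, with a median over all probes of 0.23. Replicate 5 of cortex at site 2 had the lowest value of its group for all 4 genes. Over the other 4 arrays the SDs were 0.18 for Gng13, 0.04 for Prkca, 0.13 for Trpm1 and 0.08 for Pcp2, so that for Prkca the order turned and cortex lay below retina. Retina replicate 5 at site 2 had the highest value of its group for Pcp2, Gng13 and Prkca, and retina replicate 2 at site 2 the lowest for Pcp2, Prkca and Trpm1.

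**Figure D4:**
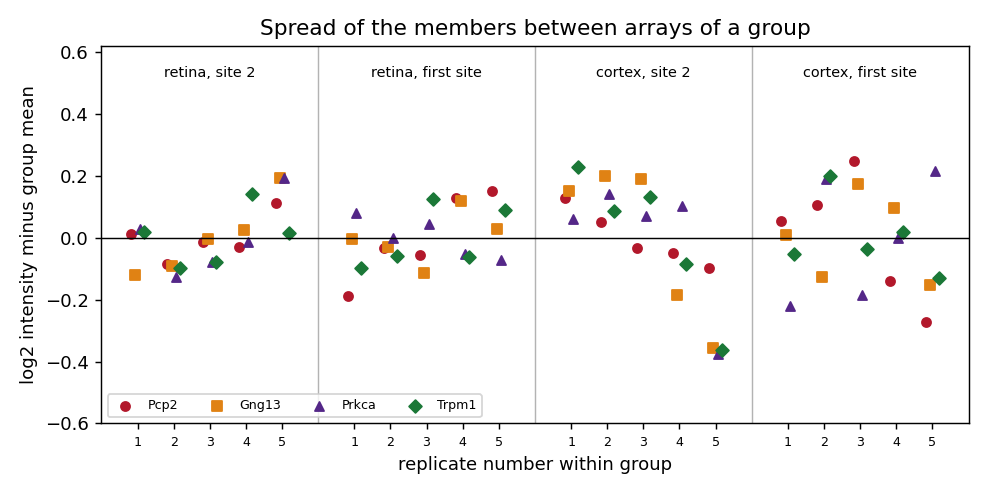
Log2 intensity of each gene minus its group mean (vertical axis) for replicates 1 to 5 of the 4 groups (horizontal axis). On replicate 5 of cortex at site 2 all 4 genes lie below 0, and on the other arrays the genes lie between -0.27 and 0.25.

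Genes that act beside the members were described from lists of pathway partners and relatives, the members left out. Over all tested probes the median retina minus cortex difference was -0.04 at the first site and -0.05 at site 2. Of 15 genes listed for the mGluR6 cascade, 5 were measured, of which 2 stood higher in retina and 0 lower on each site's arrays (median -0.18 and -0.10). Gnb3, the beta subunit that pairs with Gng13, had geometric means of 23.6 on first-site retina arrays and 0.158 on the cortex arrays, with 19.4 in retina and 0.107 in cortex at site 2. Its difference was 7.22 and 7.499 on the log2 scale (adjusted p in limma 5.5e-17 and 3.2e-17), and 6.55 at site 2 with a pseudocount of 0.1. Gnb3 is shared with cones. Gnb5, the beta subunit that joins the RGS proteins which switch Go off, was 10.4-fold higher in retina at each site (adjusted p in limma 4.1e-16 and 3.7e-16). Gnao1, the alpha subunit of Go, differed by -0.64 and -0.58, Rgs7, 1 of those RGS proteins, by -0.18 and -0.10, and Ric8a, a chaperone of G alpha subunits, by -0.85 and -0.80, and these 3 did not pass the 2-fold rule.

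Of 21 other bipolar cell genes listed, 9 were measured, of which 8 passed as higher in retina and 0 as lower, on each site's arrays (median 2.36 and 2.20). Otx2, a homeodomain factor of photoreceptors and bipolar cells, was 21.2-fold and 22.5-fold higher, and Isl1, a factor of ON bipolar cells and of other inner retinal neurons, 5.12-fold and 4.60-fold. Irx5, a homeodomain factor of some OFF bipolar cells, was 4.63-fold and 4.18-fold higher, and Sebox, a homeobox gene, 73.9-fold and 102-fold. Leaving out cortex replicate 1 took the Sebox difference at site 2 to 6.01, against 6.68 with all arrays. With values under the 25th percentile of intensities raised to it, the Sebox differences at the first site and site 2 were 4.43 and 4.57. A pseudocount of 0.1 gave 4.77 and 4.89. Cabp2, a calcium-binding protein, differed by 6.10 and 3.95 on the log2 scale, and by 4.88 at site 2 without cortex replicate 5, the array on which it read 2.05 while the 3 others with a value read 0.131 to 0.199. Grik1, a kainate receptor subunit of OFF bipolar cells, was 4.44-fold and 3.74-fold higher, and Gabrr1, a GABA receptor subunit of bipolar terminals, 12.5-fold and 5.62-fold. On cortex replicate 5 of site 2 Gabrr1 read 2.51, against 0.878 to 0.959 on the other cortex arrays there. Syt2, a synaptotagmin, was 3.20-fold and 2.44-fold higher, with geometric means of 0.161 or less in every group, and this was lost when values under the 25th percentile of intensities were raised to it (log2 0.01 and 0.08) and with a pseudocount of 0.1 (0.74 and 0.65). Lhx4 differed by 0.23 and 0.12 and did not pass. In limma the 8 genes that passed had adjusted p of 9.9e-05 or less at both sites.

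Of 11 other gamma subunit genes listed 6 were measured, of which 3 passed as lower in retina and 0 as higher, on each site's arrays (median -1.82 and -1.84). Gng2 was -2.81 and -2.86, Gng10 -2.66 and -2.78 and Gng12 -2.91 and -3.17 on the log2 scale, with adjusted p in limma of 1.6e-12 or less. Gng3, a gamma subunit of neurons, differed by -0.42 and -0.56, Gng4 by -0.99 and -0.91 and Gng11 by 0.77 and 0.80, and these did not pass. Gng4 passed at the first site, with -1.01 to -1.03, when retina replicate 3 or 4 or cortex replicate 2 or 5 of that site was left out. All 5 beta subunit genes were measured and all 5 passed, 3 higher and 2 lower in retina at both sites (median 2.87 and 3.37). Gnb1, the beta subunit of rod transducin, was 7.29-fold and 10.4-fold higher in retina, as were Gnb3 and Gnb5 above, whereas Gnb2 (-1.80 and -1.89) and Gnb4 (-3.57 and -3.59) were lower. The 16 alpha subunit genes listed, 12 of them measured, had 3 higher and 2 lower at the first site and 3 and 3 at site 2 (median 0.01 and -0.11), and they include the transducins of rods and cones.

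Among GoLoco proteins and the Pcp4 family, related to Pcp2 by motif or by name, 5 of 8 were measured, of which 3 passed as higher in retina on each site's arrays and 0 as lower (median 1.10 and 1.21). Gpsm2, a GoLoco protein of spindle orientation, was 19.9-fold and 23.0-fold higher. Pcp4, a calmodulin-binding peptide that shares with Pcp2 a name from Purkinje cells and no motif, was 2.14-fold and 2.32-fold higher, just past the rule (log2 1.10 at the first site, and 0.9998 without cortex replicate 4 there). Pcp4l1 was 7.84-fold and 10.7-fold higher. Rgs14, another GoLoco protein, differed by 0.19 and 0.33 and did not pass.

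Of the protein kinase C family besides Prkca, 9 of 14 genes were measured, and 2 were higher and 1 lower in retina at the first site, 1 and 3 at site 2 (median 0.28 and 0.26). Prkd1, protein kinase D1, was 3.18-fold and 3.27-fold higher. Prkcb, the beta isoform, was 2.14-fold higher at the first site and differed by 0.22 at site 2, and Prkcd, the delta isoform, was lower at both sites (-1.21 and -1.47). Prkce passed at site 2 only (-0.82 and -1.495), and Prkch likewise (-0.31 and -1.30), where Prkch read 1.71 on cortex replicate 5 and 0.156 to 0.252 on the other 4 cortex arrays. Without that array the Prkch difference was -0.66 and did not pass. The difference between sites was tested for each, with adjusted p in limma of 8.6e-04 for Prkcb, 0.159 for Prkce and 0.374 for Prkch. Of 14 substrates and anchors of the kinase listed, 10 were measured, of which 4 passed as lower on first-site arrays and 5 on site 2 arrays, with 0 higher on either (median -0.77 and -1.10). Gap43, a growth cone protein, was -3.21 and -3.74, Marcksl1 -4.58 and -4.84, Nrgn, neurogranin, -4.63 and -4.44, and Add2, beta-adducin, -3.69 and -3.29. Marcks passed at site 2 (-1.55) and not at the first site (-0.81), where it did with quantile normalization (-1.09).

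Of 25 other TRP channels listed 12 were measured, with 2 higher and 3 lower in retina at the first site and 0 and 3 at site 2 (median -0.06 and -0.07). Trpm5 and Trpm7, the measured relatives of Trpm1 in the TRPM family, were chosen after their values were seen and not by the naming rule. They differed by -0.16 and -0.32 and by 0.44 and 0.43, and neither passed. Trpc1 (1.10 and 0.82) and Trpc6 (1.18 and 0.69) passed at the first site only, Trpc6 not with values raised to the 25th percentile (a floor, 0.71) or with the pseudocount (0.80), and the adjusted p of the difference between sites was 0.518 for Trpc1 and 0.247 for Trpc6 in limma. Trpc4 (-1.34 and -1.13), Trpv2 (-2.25 and -2.54) and Trpv6 (-1.67 and -1.71) were lower at both. Trpv6 had a geometric mean of 0.341 or less in every group, and its first-site value was -0.33 with that floor and -0.94 with the pseudocount, which did not pass, nor did -0.81 with the floor at site 2.

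**Figure D5:**
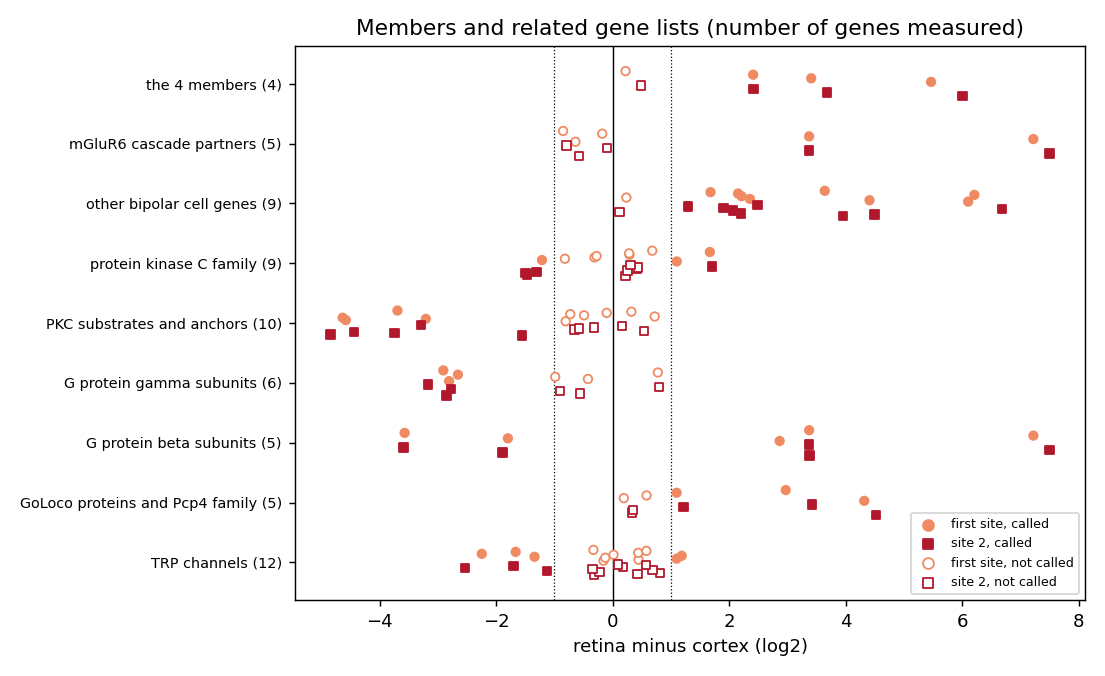
Log2 difference of retina minus cortex (horizontal axis) for the 4 members and for the measured genes of 8 related lists (rows, with the number of genes), at the first site (circles) and at site 2 (squares). Filled symbols passed the adjusted p and the 2-fold rule, and dotted lines mark 2-fold. The other bipolar cell genes all lie to the right, beyond the 2-fold line except for Lhx4. The substrates and anchors of protein kinase C and the gamma subunits lie mostly to the left.

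Genes of other cell types that carry the members were measured in the same RNA. Pigment cells share Trpm1, and of 6 measured pigment epithelium and melanocyte markers 3 were higher in retina at the first site and 2 at site 2, with 1 and 0 lower. Summed only on arrays where all 6 had a value, they came to 8.48 to 10.1 on 4 retina arrays against 1.82 to 2.31 on 5 cortex arrays at the first site. At site 2 the sum was 8.74 to 10.7 on 5 retina arrays against 1.98 and 2.54 on 2 cortex arrays. The log2 difference at the first site and at site 2 was 4.63 and 4.99 for Rpe65, the retinoid isomerase of pigment epithelium, and 3.79 and 2.71 for Dct, a melanin enzyme, which passed at both. At site 2 Dct read 2.04 on cortex replicate 5, the array that stood apart, and 0.195 to 0.226 on the other cortex arrays. Slc45a2, a melanosome transporter, gave 1.14 and 0.77 and Oca2, another, -1.47 and -0.73, each past the rule at the first site only. Slc45a2 read 1.93 on retina replicate 2 of site 2 and 0.357 to 0.525 on the other retina arrays of that site. Pmel, a melanosome protein, gave 0.62 and -0.06 and Mitf, a melanocyte transcription factor, 0.47 and 0.91, and neither passed. Purkinje cells share Pcp2, and of 6 measured Purkinje markers, of which Calb1 is also on the amacrine list and Pcp4 on the list above, 4 were higher and 1 lower in retina at the first site and 5 and 1 at site 2. Their sum was 94.2 to 124 on retina arrays against 36.4 to 47.8 on cortex arrays at the first site, and 80.4 to 97.2 against 29.9 to 36.6 at site 2. Most of it was Pcp4 and Calb1, which read 61.1 to 81.0 and 20.7 to 28.1 on first-site retina arrays. Slc1a6, the 1 that was lower, read 0.496 to 0.536 on those arrays against 1.14 to 1.21 on first-site cortex arrays. Of the taste and olfactory markers 1 of 6, Trpm5, was measured. The part of these cells in the members' differences was not tested.

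The genes most like each member were sought by the Pearson correlation of log2 intensity over the 20 arrays, among 8479 other named genes with a value on every array. These correlations are carried by 2 RNA pools and are descriptions only. For Pcp2 the closest were Ankrd33b (0.997), Trf (0.997) and Mpp4 (0.997). For Gng13 they were Grtp1 (0.999), Ebpl (0.997) and Cartpt (0.997), and for Prkca Rabgef1 (0.997), Adipor1 (0.996) and Abcg1 (0.996). Values over 0.9 were common, with 898 genes for Pcp2, 943 for Gng13 and 965 for Prkca. For Trpm1 only 14 genes passed 0.9, led by Vps11 (0.944), Syvn1 (0.928) and Tex264 (0.925).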

How the data were processed

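The authors deposited linear intensities, 1 value for each of 10500 probes on each array. Per the labels' protocols, biotin-labelled RNA followed the CodeLink assay. Which software, background step, scaling and filters came next is not stated in those labels. The deposited intensities hold 143 values at or below 0, which were treated as missing, and 2080 blanks, and array medians are nearly equal. Probes were named from the platform annotation, in which 9378 probes have 1 gene symbol, 8 several and 1114 none, and Entrez identifiers of 9323 matched RefSeq (GRCm38.p6), with 0 symbols changed. Intensities were put on the log2 scale, and probes with a value on at least 3 arrays of each group were tested (10339 kept, 161 left out). Limma 3.58.1 in R 4.3.3 fitted a mean for each of 4 groups to all 20 arrays (lmFit and eBayes, 16 residual and 2.16 prior degrees of freedom), with 2-sided p-values adjusted by Benjamini-Hochberg over the 10339 probes. The fit was tested on simulated data. The named genes are the 4 members, list genes that passed at either site and up to 3 per list with the smallest difference, and the 3 most correlated genes of each member. Alternatives were quantile normalization, floors at the 5th and 25th percentiles, a pseudocount of 0.1, 2 filters, a fit on the groups compared alone, a replicate block, a trended robust eBayes and each array left out. The probe with the highest mean stood for a gene. The members and lists were chosen with earlier results of these data known. Equal replicate numbers did not deviate together (0 of 30 pairs correlated over 0.1), so they do not pair the arrays. Promoter windows came from RefSeq. Python 3.11.15 and matplotlib 3.10.9 made tables and plots.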

Additional observations from a re-analysis of the deposited data

Results flagged for a closer look

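The retina minus cortex difference differed between sites, at an adjusted p under 0.05 in limma's test of that difference, for 6 of 48 genes, against 3.98% of all tested probes. Most of the 48 were named because they passed the tissue comparison, so the count says nothing particular about them. The differences at site 2 minus those at the first site were 0.54 for Pcp2, -1.151 for Gabrr1, -0.88 for Prkcb, -0.53 for Gap43, -0.75 for Marcks and 0.51 for Gnb1 on the log2 scale.

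In 18 of 192 sets of arrays (4 groups for each of 48 genes, with 4 or 5 values each), 1 array lay far from the others, where chance gives about 1 in 20. Replicate 5 of cortex at site 2 accounted for 10 of these 18. There Prkca read 0.515 (0.698 to 0.738 on the other 4 arrays), Rgs7 3.56, Gnb2 13.5 and Gnb4 2.22, each the lowest of its group, and Cabp2 2.05, Gabrr1 2.51, Prkcd 4.97, Prkce 4.35, Prkch 1.71 and Trpv2 3.38, each the highest. On the other arrays, Isl1 read 7.67 on retina replicate 2 of site 2, Syt2 0.201 on retina replicate 1 of the first site and 0.254 on retina replicate 5 of site 2, and Prkcb 3.42 on retina replicate 5 of the first site. Gng2 read 1.78 on cortex replicate 2 of site 2, Gnb1 8.595 on cortex replicate 3 of the first site, and Pcp4 25.4 on cortex replicate 4 of the first site and 19.4 on cortex replicate 2 of site 2.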

How the results depend on the processing

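The retina minus cortex results of the 4 members kept their direction and their side of the 2-fold rule at both sites under the 9 other settings and under the 20 fits that each left out 1 array. At the first site the 9 settings gave 5.30 to 5.46 for Pcp2, 3.24 to 3.41 for Gng13, 2.28 to 2.41 for Prkca and 0.19 to 0.24 for Trpm1 on the log2 scale. At site 2 they gave 5.81 to 6.10, 3.58 to 3.76, 2.26 to 2.49 and 0.43 to 0.56. The replicate block left 3 of 4 members called at each site and gave 5.46 and 6.005 for Pcp2. It changed no member's call, although same-numbered arrays deviated together in 0 of 30 pairs (correlations -0.107 to 0.0773). Counts of called probes with the block were 2573, 2535, 63, 638 and 737, against 2574, 2542, 75, 645 and 745. Averaging the probes of a gene gave no alternative, since no member and no named gene of the pathway lists had several. Marker genes and the most correlated genes were not checked for this. Directions that turned were of differences close to 0. Between sites Gng13 in retina was 0.0685 after quantile normalization, and the Prkca difference between sites was -0.0230 with a pseudocount of 0.1 and -0.0867 to 0.0621 over the fits without 1 array. Trpm1 between sites in cortex was -0.0613 to 0.0867 over those fits, and Trpm5 at the first site -0.461 to 0.0347. The number of probes called between sites depended on dim probes. In retina it was 645, and 312 with a floor at the 25th percentile, 255 with the pseudocount and 367 without dim probes. In cortex it was 745, and 396, 370 and 444 in the same order. For the difference of differences it was 75, 35 with the pseudocount, and 56 to 121 over fits without 1 array (121 without cortex replicate 5 of site 2). The share of called probes higher at site 2 in cortex was 73.4%, and 49.3% after quantile normalization, and in retina 76.7% and 63.1%. For the difference of differences it was 37.3% and 48.7%. With the floor, the pseudocount or no dim probes these shares were 54.0% to 57.6% in cortex and 58.7% to 63.8% in retina, and the pseudocount gave 20% for the difference of differences. The floor or the pseudocount moved Gnb3 to between 6.50 and 6.64, Cabp2 at the first site to 4.74 and 4.90, Sebox to between 4.43 and 4.89, Marcksl1 to between -3.83 and -4.01 and Add2 at the first site to -2.99. The cause was not tested. No detection call was used, so signal over background was not tested for the dim genes. Nor was it tested for Trpm1, which lay at mean percentiles of 43.3 to 50.4 of an array's probes in the 4 groups. The same holds for Pcp2 and Prkca in cortex.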
